A study of Rattus norvegicus with 6 samples.

Results

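The 9 genes described here encode the MHC class II antigen presentation machinery of the rat and its master regulator. They were taken by symbol from deposited tables of 20104 genes, and all 9 are present: RT1-Da, RT1-Db1, RT1-Ba, RT1-Bb, RT1-DMa, RT1-DMb, RT1-DOa, Cd74 and Ciita. Rat livers were sampled on day 14 after a trauma dressed with AKOC, an abbreviation that the labels do not expand and that belongs to a study of kaolin scales anchored on cotton, or with Quik-clot, a commercial haemostatic dressing used as the control. Each dressing has 3 RNA sequencing libraries. Every library comes from injured, dressed liver, and no uninjured or undressed liver is among them. Strain, sex and age of the rats are not given in the labels, nor is whether each library is a separate animal. The p-values therefore reflect the spread among these libraries, part of which may be technical.

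Class II molecules are pairs of an alpha and a beta chain that carry peptides from the endosome to the cell surface for inspection by CD4+ T cells. In the rat they are encoded in the RT1 complex. RT1-D corresponds to human HLA-DR and RT1-B to human HLA-DQ. In liver they are known mainly from dendritic cells, Kupffer cells and B cells, while resting hepatocytes carry little. Cd74, the invariant chain, occupies the groove until the peptide is loaded, the DM pair catalyses loading, and DO holds DM back. Ciita does not bind DNA itself. In human and mouse it docks on the RFX, CREB and NF-Y proteins that sit on the X and Y boxes of class II promoters and switches these genes on together.

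The promoters are shown because that shared control element can be read in them. RefSeq-derived promoter windows on the GRCr8 build, from 250 bases before to 50 after each start, were held for 7 of the 9 members. RT1-DMb and Ciita had none. The stretches below run 5′ to 3′ on the gene's strand, with capitals marking GCAAC, the core of the X box that RFX contacts, and GATTGG, the core of the Y box that NF-Y contacts.
RT1-Da (chr20:4515320-4515376, plus strand): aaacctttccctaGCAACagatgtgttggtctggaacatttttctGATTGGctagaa
RT1-Db1 (chr20:4560232-4560288, minus strand): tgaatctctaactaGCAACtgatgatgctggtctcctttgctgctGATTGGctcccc
RT1-Ba (chr20:4576968-4577024, plus strand): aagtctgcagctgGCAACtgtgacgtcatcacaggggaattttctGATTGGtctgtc
RT1-Bb (chr20:4604169-4604225, minus strand): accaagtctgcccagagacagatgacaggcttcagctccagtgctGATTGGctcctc
RT1-DMa (chr20:4712389-4712445, minus strand): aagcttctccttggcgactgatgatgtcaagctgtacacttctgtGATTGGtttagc
RT1-DOa (chr20:4758520-4758576, minus strand): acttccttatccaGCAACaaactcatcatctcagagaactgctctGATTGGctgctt
Cd74 (chr18:56527126-56527186, plus strand): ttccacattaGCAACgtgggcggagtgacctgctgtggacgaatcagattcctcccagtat

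GATTGG was found in 6 of the 7 windows on either strand, against 14.8% of 33469 promoter windows of all genes. GCAAC was found in 5 of 7, against 35.1% of all windows. Both cores in the same direction, GCAAC first and 15 to 40 bases between them, occurred in 4 members (RT1-Da, RT1-Db1, RT1-Ba and RT1-DOa) and in 0.427% of all windows. The spacing was 27 bases in RT1-Da, RT1-Ba and RT1-DOa and 26 in RT1-Db1. The shorter letters CCAAT on either strand, whose reverse ATTGG lies within GATTGG, were found in 7 of 7, Cd74 included, against 37.5% of all windows. RT1-Bb and RT1-DMa have the Y core without those X letters, and Cd74 has the X core without those Y letters. The letters and the spacing were chosen after the member promoters had been read, so the member counts are a description. Absence of a match says only that the letters do not stand in this window.

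Libraries were of nearly equal depth, with totals from 40402312 to 41455378 counts, and TMM scaling factors of edgeR ran from 0.902 to 1.12. Albumin, the main product of hepatocytes, stood at 73731 to 122898 CPM (counts scaled to a common library size, after that correction) in AKOC livers and 62634 to 90199 CPM in Quik-clot livers. The class II members together took 0.0170%, 0.0205% and 0.0149% of counts in AKOC replicates 1, 2 and 3, against 0.0228%, 0.0599% and 0.0273% in Quik-clot replicates 1, 2 and 3. Quik-clot replicate 2 stood apart in these genes. It was the highest library for 8 of the 9 members, where it was the highest for 16.3% of all 13872 genes tested. The remaining member, RT1-Bb, was highest in Quik-clot replicate 3.

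In tissue RNA, fewer class II-bearing cells and less class II RNA per cell cannot be told apart. Reads of near-identical RT1 genes may also have been split or pooled in the authors' counting, so single RT1 values are uncertain. RT1 genes also differ between rat strains, and strain is not given in the labels. Among class I genes, chosen for mention after their values were seen, RT1-A2 was at 30.5, 40.8 and 76.9 CPM in AKOC replicates 1, 2 and 3, against 76.4, 78.7 and 4.35 CPM in Quik-clot replicates 1, 2 and 3. RT1-CE10 was at 2.81, 2.35 and 14.1 CPM in AKOC livers, against 3.22, 11.4 and 0.108 CPM in Quik-clot livers. Both were lowest in Quik-clot replicate 3, the library with the highest RT1-Bb, and the part of RT1 alleles in the class II values was not tested. Below, values are listed in the order of replicates 1, 2 and 3.

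RT1-Da, the alpha chain of RT1-D, stood at 28.4, 51.95 and 32.2 CPM in AKOC livers, against 44.6, 131 and 69.5 CPM in Quik-clot livers. In CPM the dressings overlapped, because AKOC replicate 2 lay above Quik-clot replicate 1. The overlap depends on the scaling: in raw counts AKOC replicate 2 was below Quik-clot replicate 1 (1946 against 2051). The log2 fold change, AKOC over Quik-clot, was -1.13 ± 0.40 (SE), with a 95% interval of -2.08 to -0.17 and an edgeR quasi-likelihood p of 0.0265 that was 0.363 after Benjamini-Hochberg adjustment over all genes. RT1-Db1, the beta chain of RT1-D, had 4.76, 7.53 and 8.37 CPM in AKOC livers and 9.71, 29.9 and 9.32 CPM in Quik-clot livers. In CPM it was the only member in which every AKOC library lay below every Quik-clot library, a pattern seen in 8.84% of all genes tested. The gap was narrow, from 8.37 CPM in AKOC replicate 3 to 9.32 CPM in Quik-clot replicate 3. Its log2 fold change was -1.24 ± 0.48 (edgeR adjusted p = 0.375). In raw counts and in FPKM, RT1-Da and Cd74 also separated in this way. The share of all genes that do so on those scales was not computed.

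RT1-Ba, the alpha chain of RT1-B, was at 5.86, 6.89 and 3.70 CPM in AKOC livers, against 3.66, 21.0 and 17.9 CPM in Quik-clot livers. RT1-Bb, its beta partner, was at 7.61, 4.57 and 8.63 CPM in AKOC livers, against 4.24, 29.2 and 29.4 CPM in Quik-clot livers. Both chains were high in Quik-clot replicates 2 and 3, while Quik-clot replicate 1 was the lowest of all 6 libraries in CPM, by a small margin. This differs from RT1-D, for which Quik-clot replicate 2 alone was far above the rest. The lowest place depends on the scaling. In raw counts AKOC replicate 3 was below Quik-clot replicate 1 for RT1-Ba (142 against 168), and AKOC replicate 2 was below it for RT1-Bb (171 against 195). The log2 fold changes were -1.37 ± 0.58 for RT1-Ba (edgeR adjusted p = 0.399) and -1.59 ± 0.65 for RT1-Bb (edgeR adjusted p = 0.391).

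Cd74, the invariant chain, was the most abundant member. It stood at 67.4, 114 and 80.8 CPM in AKOC livers and 109, 283 and 133 CPM in Quik-clot livers. In CPM AKOC replicate 2 slightly exceeded Quik-clot replicate 1, and the other AKOC libraries lay below all Quik-clot libraries. In raw counts AKOC replicate 2 (4282) was also below all Quik-clot libraries, of which replicate 3 was lowest (4910). The log2 fold change was -0.9998 ± 0.37, with a 95% interval of -1.88 to -0.12 (edgeR adjusted p = 0.369).

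The loading factors had smaller log2 fold changes. RT1-DMa had 10.9, 10.4 and 6.13 CPM in AKOC livers and 10.05, 14.5 and 12.54 CPM in Quik-clot livers, a log2 fold change of -0.43 ± 0.25 (edgeR adjusted p = 0.501). RT1-DMb had 30.9, 28.4 and 14.9 CPM in AKOC livers and 19.2, 43.4 and 28.6 CPM in Quik-clot livers, a log2 fold change of -0.30 ± 0.36 (edgeR adjusted p = 0.746). In both genes AKOC replicate 3 was the lowest library and AKOC replicate 1 lay above Quik-clot replicate 1. The 95% intervals, -1.01 to 0.15 for RT1-DMa and -1.13 to 0.54 for RT1-DMb, include 0 and reach down to about the estimates of RT1-Da and Cd74.

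RT1-DOa, the alpha chain of the DM inhibitor, was barely detected. It had 23, 9 and 13 raw counts in AKOC livers and 13, 33 and 16 in Quik-clot livers. The exact 95% Poisson interval of the lowest of these ran from 4.12 to 17.1 counts and covers counting error only. Its log2 fold change was -0.41 ± 0.52 (edgeR adjusted p = 0.760), and a difference was not detectable at this depth.

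Ciita, the transactivator, stood at 1.08, 2.99 and 1.93 CPM in AKOC livers, against 2.44, 7.31 and 1.89 CPM in Quik-clot livers. Quik-clot replicate 2 was far above the others, and the remaining libraries of both dressings were interleaved. The log2 fold change was -0.96 ± 0.58, with a 95% interval of -2.33 to 0.40 (edgeR adjusted p = 0.518). In Quik-clot replicate 3 the regulator was lower than in Quik-clot replicate 1, whereas RT1-Ba and RT1-Bb were higher there.

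**Figure D1:**
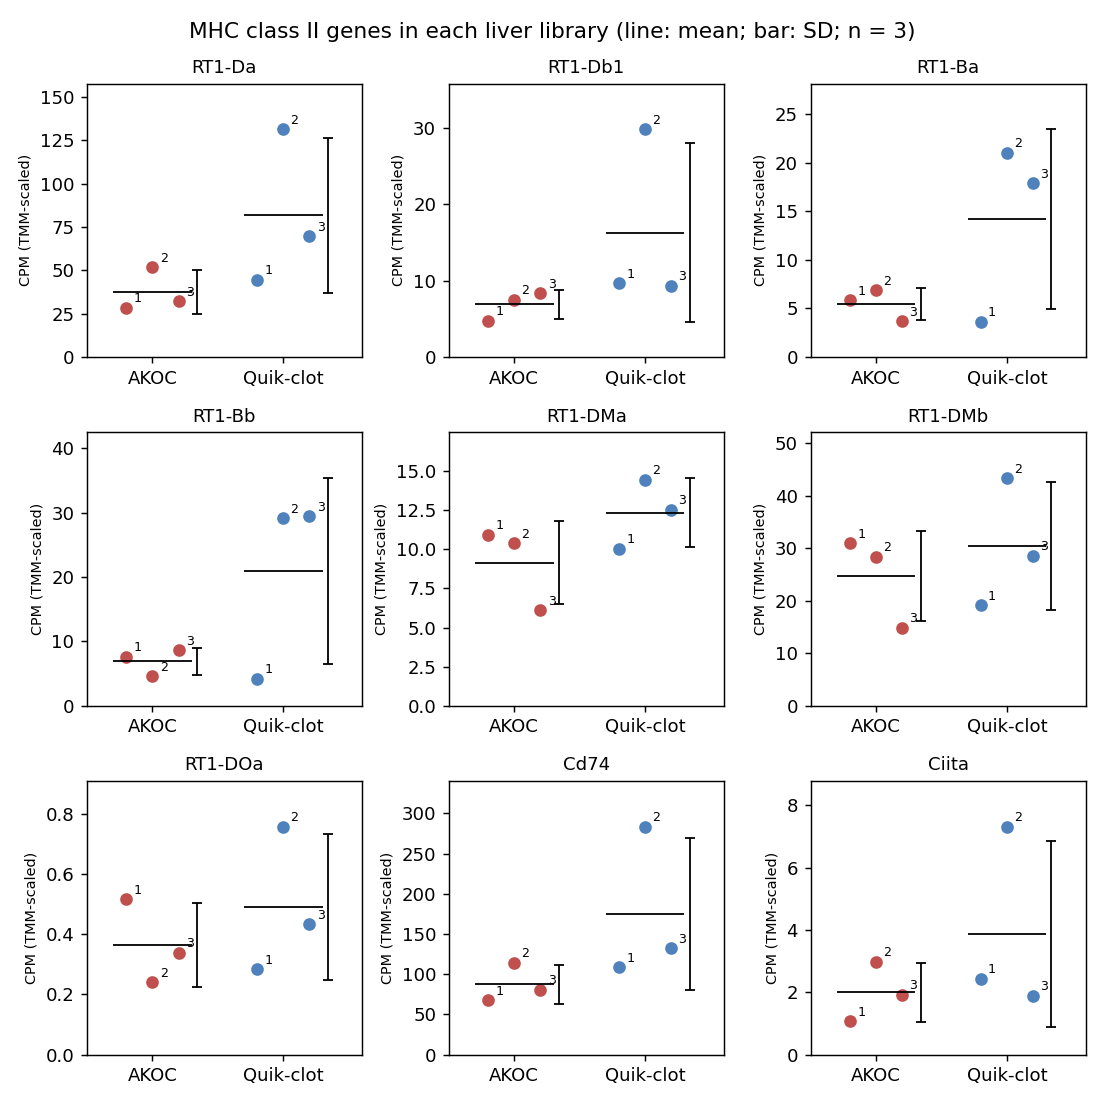
Levels of the 9 class II genes in CPM (y axis, from 0) for each AKOC and Quik-clot library (points, numbered by replicate), with the mean as a line and the SD as a bar (n = 3). Quik-clot replicate 2 is the highest point in every panel except RT1-Bb, where Quik-clot replicate 3 is at 29.4 CPM, and the dressings overlap in all panels except RT1-Db1.

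No class II gene passed the adjusted threshold. With edgeR 0 of 9 members were called lower after AKOC, as were 0% of all genes, and the lowest adjusted p over all genes was 0.181. At an unadjusted p under 0.05, 5 members were lower (RT1-Da, RT1-Db1, RT1-Ba, RT1-Bb and Cd74) and 0 higher, where 5.69% of all genes were lower and 6.78% higher. DESeq2, as an alternative count model, called 0.679% of genes lower with an adjusted p under 0.05 and again 0 members. The lowest DESeq2 adjusted p of a member was 0.101, for RT1-Da. The log2 fold change was negative for all 9 members, as it was for 52% of all genes, with a median of -0.9998 over the members and -0.01 over all genes tested. The members share the same 6 libraries, so their common sign does not stand for 9 separate observations.

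Leaving out Quik-clot replicate 2 moved RT1-Da, RT1-Db1, RT1-DMb, RT1-DOa, Cd74 and Ciita by more than any other single omission did. Without it, the member median was -0.47, 0 members had an unadjusted p under 0.05 (7.59% of all genes were lower at that level), and RT1-DMb and RT1-DOa turned to 0.05 and 0.06. Ciita was then at -0.12 ± 0.44 and RT1-Db1 at -0.47 ± 0.25. Cd74 (-0.47 ± 0.23) and RT1-Da (-0.61 ± 0.30) had the smallest adjusted p-values of the members without it, at 0.360 and 0.361. RT1-Ba (-0.97 ± 0.62) and RT1-Bb (-1.28 ± 0.71) kept a larger difference. That difference then rested on Quik-clot replicate 3, since Quik-clot replicate 1 lay close to the lowest AKOC library in both. The number of members lower at an unadjusted p under 0.05 was also 0 when AKOC replicate 1 was left out (5.23% of all genes). It was 2 on omitting AKOC replicate 2 (3.58%), 1 on omitting AKOC replicate 3 (3.1%) and 3 on omitting Quik-clot replicate 3 (4.47%). It stayed at 5 on omitting Quik-clot replicate 1 (4.5%).

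**Figure D2:**
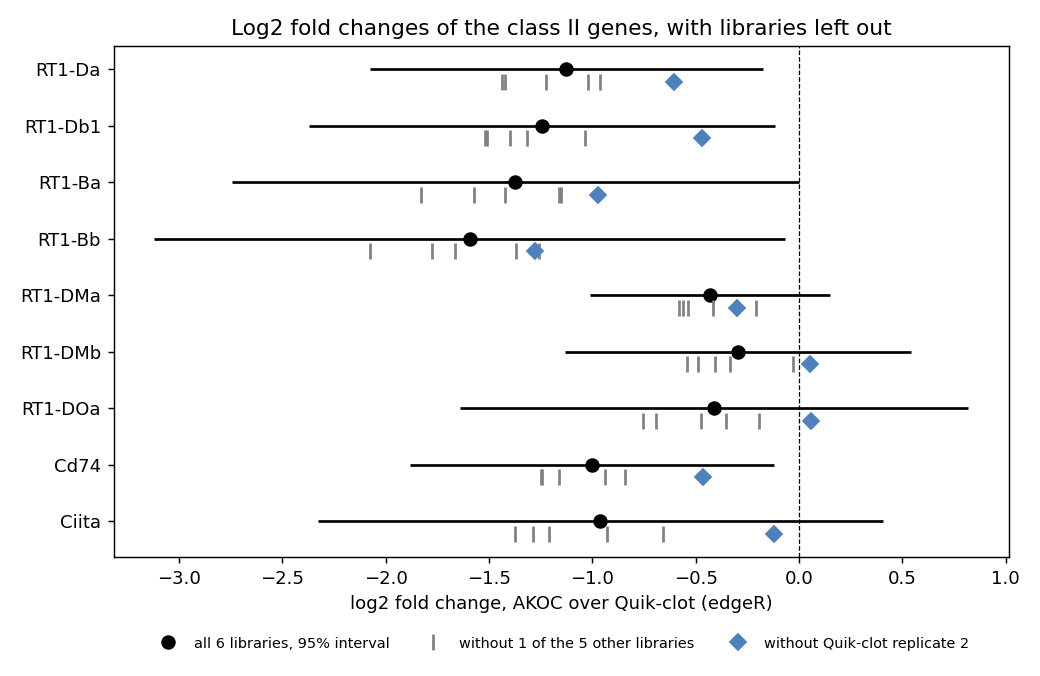
Log2 fold change (x axis, AKOC over Quik-clot, edgeR) of each class II gene with its 95% interval from all 6 libraries (black), without each of 5 libraries in turn (grey ticks) and without Quik-clot replicate 2 (blue diamonds). Without that library RT1-DMb and RT1-DOa lie just above 0, and Ciita is at -0.12.

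Levels were compared between genes per transcript length, as the deposited FPKM (fragments corrected for transcript length and library size). Cd74 averaged 58.5 ± 11.6 FPKM in AKOC livers and 126 ± 73.0 FPKM in Quik-clot livers (mean ± SD, n = 3 each), the highest of the 9. RT1-Da came next with 29.7 ± 7.79 FPKM in AKOC livers and 69.6 ± 40.4 FPKM in Quik-clot livers, then RT1-DMb with 18.9 ± 7.48 and 24.1 ± 10.3 FPKM in AKOC and Quik-clot livers. The next 4 genes changed order with the dressing. In AKOC livers RT1-DMa averaged 8.27 ± 2.76 FPKM, above RT1-Db1 (5.21 ± 1.11), RT1-Ba (4.78 ± 1.42) and RT1-Bb (4.51 ± 1.55). In Quik-clot livers it averaged 11.7 ± 2.22 FPKM, below RT1-Bb (13.7 ± 9.30), RT1-Db1 (13.4 ± 10.2) and RT1-Ba (12.7 ± 8.35), differences smaller than the spread of those 3. Ciita (0.512 FPKM) and RT1-DOa (0.363 FPKM) were lowest and also within each other's spread. Cd74 lay above 97% of the genes in the table, and Ciita above 44.3%.

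Cd74 and RT1-Da kept a similar proportion over the libraries. Their FPKM ratio was 2.0002, 1.85 and 2.12 in AKOC livers and 2.06, 1.82 and 1.61 in Quik-clot livers, a 1.32-fold range over libraries in which Cd74 itself ranged 4.20-fold in CPM. Within RT1-D, the beta to alpha ratio was 0.160, 0.138 and 0.248 in AKOC livers and 0.207, 0.217 and 0.128 in Quik-clot livers. RT1-Db1 thus lay far below its alpha partner in every library. RT1-Db2, a second RT1-D beta gene of the table, was close to absent, at 0.0225 to 0.0267 CPM in AKOC livers and 0.0218 to 0.183 CPM in Quik-clot livers.

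Within RT1-B the ratio of RT1-Bb to RT1-Ba varied more, at 0.958, 0.489 and 1.72 in AKOC livers and 0.856, 1.02 and 1.21 in Quik-clot livers. The ends of this 3.52-fold range are both AKOC libraries, replicates 2 and 3. The summed RT1-B chains relative to the summed RT1-D chains were 0.377, 0.188 and 0.272 in AKOC livers and 0.137, 0.288 and 0.548 in Quik-clot livers. The balance of RT1-B to RT1-D therefore differed 4.01-fold between Quik-clot replicates 1 and 3, and the AKOC values lay between them. The mean ratios of AKOC and Quik-clot livers, 0.279 ± 0.095 and 0.324 ± 0.208, differed by less than the spread between libraries.

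The ratio of the DM pair to the classical chains varied 3.29-fold over the libraries, and the dressings overlapped in it. The FPKM of RT1-DMa and RT1-DMb summed was 0.908, 0.545 and 0.407 of the 4 classical chains summed in AKOC livers, and 0.477, 0.276 and 0.336 in Quik-clot livers. The lowest value was that of Quik-clot replicate 2, the library with the highest classical chain sum (39.97 to 52.3 FPKM in AKOC livers, against 56.6, 182 and 90.3 FPKM in Quik-clot livers). These ratios are given without a test. An exact permutation test of 3 against 3 libraries cannot give a two-sided p below 0.1.

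**Figure D3:**
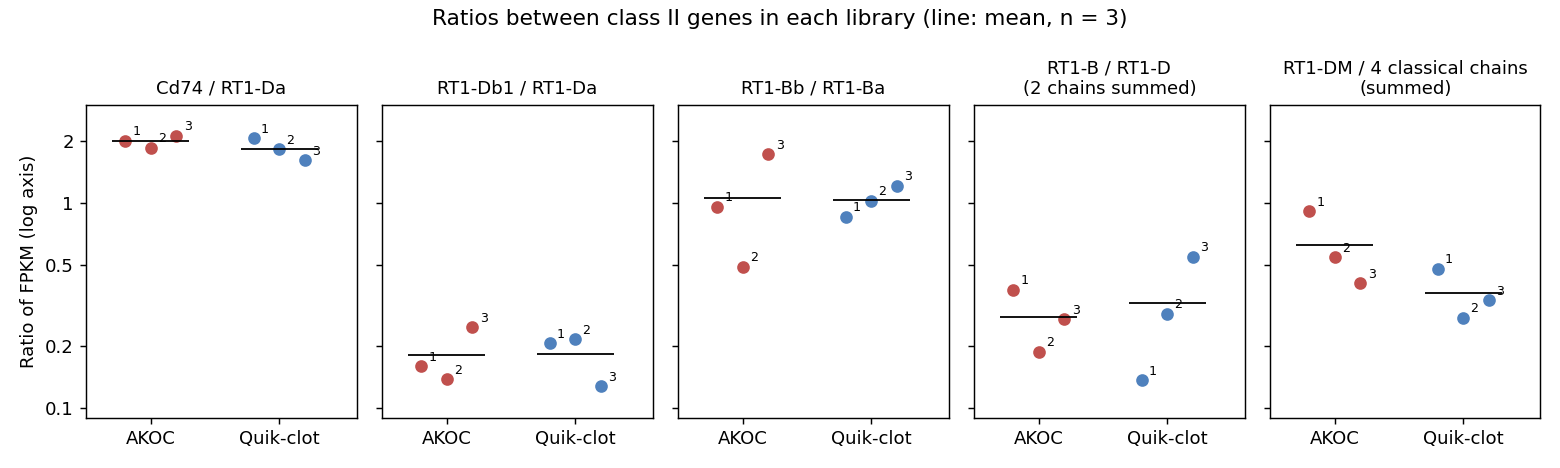
Ratios of deposited FPKM between class II genes (y axis, log scale) in each AKOC and Quik-clot library (points, numbered by replicate; line, mean of n = 3). Cd74 to RT1-Da lies between 1.61 and 2.12, whereas RT1-Bb to RT1-Ba and RT1-B to RT1-D spread widely within a dressing.

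The rest of the pathway was followed in lists of genes, none of whose members passed the adjusted threshold in edgeR. DESeq2 called 3 of the listed genes lower and 1 higher, all of them cell markers, and they are named with their lists below. Of 16 genes of class II transcription, 14 had negative log2 fold changes, with a median of -0.22. A single one was lower at an unadjusted p under 0.05, a level that 5.69% of all genes reached. It was the histone acetyltransferase and coactivator Crebbp (-0.35 ± 0.15, edgeR adjusted p = 0.391). Ep300, its relative, had -0.28 ± 0.15, Rfxap, a subunit of the RFX complex, -0.25 ± 0.14, and the Ciita repressor Prdm1 -0.46 ± 0.26. Rfxap was lower in every AKOC library than in any Quik-clot library, a pattern seen in 8.84% of all genes. The other DNA-binding partners of Ciita were chosen for mention after their values were seen. Rfx5 had a log2 fold change of 0.23 ± 0.15 and Rfxank -0.08 ± 0.17. The NF-Y subunits had -0.28 ± 0.16 for Nfya, -0.20 ± 0.21 for Nfyb and -0.03 ± 0.11 for Nfyc, and Creb1 had -0.04 ± 0.12. Rfx5 was at 8.31, 8.92 and 7.74 CPM in AKOC livers and at 7.75, 7.40 and 6.19 CPM in Quik-clot livers, so it was not raised in Quik-clot replicate 2, where Ciita was highest.

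Interferon gamma is the classical inducer of Ciita, acting through Jak kinases and Irf1. Ifng itself is not among the measured genes. Of 12 tested genes of this axis 5 were negative and 7 positive, with a median of 0.06. Irf1, which binds the interferon-responsive promoter of Ciita, was at 21.1, 21.97 and 17.97 CPM in AKOC livers and 28.8, 30.5 and 23.7 CPM in Quik-clot livers (-0.44 ± 0.14, edgeR adjusted p = 0.322). It was lower in every AKOC library than in any Quik-clot library, as were 8.84% of all genes. The receptor chains lay on opposite sides, Ifngr2 at 0.31 ± 0.14 and Ifngr1 at -0.27 ± 0.17, and Jak2 was at -0.37 ± 0.22. Ifngr2 was higher in every AKOC library than in any Quik-clot library, as were 9.53% of all genes. The list median, relative to the mean of all libraries, was highest in Quik-clot replicate 2 (0.63 on the log2 scale), as the member median was (1.34).

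Among 15 genes of endosomal processing, 9 were negative and the median was -0.03. Ctss, the protease that trims Cd74 in the endosomes of antigen-presenting cells, was at 117, 115 and 68.9 CPM in AKOC livers, against 110, 230 and 139 CPM in Quik-clot livers (-0.67 ± 0.31, edgeR adjusted p = 0.421). Ctsl, a related cathepsin that is also abundant in hepatocytes, had -0.72 ± 0.26. Ctsd (0.20 ± 0.11) and Marchf8, a ubiquitin ligase that can remove class II from the surface (0.21 ± 0.10), were higher in every AKOC library than in any Quik-clot library, a pattern seen in 9.53% of all genes. The list of co-stimulation and related genes had 5 of 8 tested members negative and a median of -0.16. The co-receptor Cd4 was at -0.33 ± 0.17, Cd40 at -0.54 ± 0.44, Cd86 at -0.39 ± 0.32 and the inhibitory ligand Cd274 at 0.27 ± 0.30. RT1-DOb, the beta partner of RT1-DOa, was at 0.494, 0.427 and 0.183 CPM in AKOC livers and 0.566, 0.940 and 0.703 CPM in Quik-clot livers (-0.99 ± 0.46, edgeR adjusted p = 0.423).

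MHC class I presentation, which displays peptides from the cytosol to CD8+ T cells in nearly all cells, had log2 fold changes of both signs. Of 19 tested genes 13 were positive, with a median of 0.13. The list summed to 4121, 4485 and 4305 CPM in AKOC livers, against 3225, 5432 and 3868 CPM in Quik-clot livers, and so was highest in Quik-clot replicate 2, as class II was. Tap2, a subunit of the peptide transporter, had 0.56 ± 0.26, the trimming enzyme Erap1 0.25 ± 0.13 and the chaperone Tapbpl 0.18 ± 0.16, while the class I gene RT1-T24-4 had -0.29 ± 0.12 (edgeR adjusted p from 0.391 to 0.655). Among the 6 negative genes, chosen for mention after their values were seen, were the class I light chain B2m (-0.05 ± 0.30), RT1-A1 (-0.30 ± 0.38), RT1-A2 (-0.11 ± 0.87) and the transporter subunit Tap1 (-0.25 ± 0.35). Whether class I and class II differ in their response was not tested.

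Markers of the cells that carry class II were read beside these values. Their part in the class II differences was not tested. The 10 pan-leucocyte genes summed to 219, 228 and 159 CPM in AKOC livers, against 189, 336 and 206 CPM in Quik-clot livers, with 9 of 10 negative and a median log2 fold change of -0.24. Ptprc, the common leucocyte antigen CD45, was at 28.5, 30.6 and 20.8 CPM in AKOC livers and 30.8, 63.8 and 29.0 CPM in Quik-clot livers (-0.63 ± 0.32). Cd53 was at -0.38 ± 0.26, Lcp1 at -0.29 ± 0.22 and Cd52, the positive one, at 1.05 ± 0.83. Relative to Ptprc in FPKM, the 4 classical chains were at 6.74, 9.71 and 10.4 in AKOC livers and 8.41, 13.7 and 17.7 in Quik-clot livers, so the dressings overlapped in that ratio too.

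Macrophage and Kupffer cell markers summed to 1250 to 1749 CPM in AKOC livers and 1626 to 2385 CPM in Quik-clot livers. Of 16 markers 15 were negative, 6 were lower at an unadjusted p under 0.05, 5 were lower in every AKOC library and the median was -0.30. Over all genes tested 52% were negative, 5.69% were lower at that p and 8.84% were lower in every AKOC library. The iron exporter Slc40a1 (-0.60 ± 0.13), the endotoxin co-receptor Cd14 (-0.72 ± 0.17), the efferocytosis receptor Mertk (-0.54 ± 0.15) and the haemoglobin scavenger Cd163 (-0.51 ± 0.15) lay lower in every AKOC library, with edgeR adjusted p from 0.281 to 0.312. DESeq2 called Slc40a1 (adjusted p = 0.00913) and Cd14 (adjusted p = 0.0312) lower, against 0.679% of all genes, so these calls depend on the count model. Unlike class II, Slc40a1 was highest in Quik-clot replicate 1 (128 to 156 CPM in AKOC livers, against 243, 205 and 214 CPM in Quik-clot livers). Monocyte markers overlapped widely (73.5 to 147 CPM in AKOC livers, 76.8 to 172 CPM in Quik-clot livers). Of 10, 6 were negative, with Plac8 at -0.66 ± 0.44, Itgam at -0.62 ± 0.50, S100a4 at -0.39 ± 0.32 and Itgal at -0.33 ± 0.27.

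Dendritic cell markers were present at low levels and summed to 30.9 to 35.1 CPM in AKOC livers, against 34.4, 58.1 and 35.6 CPM in Quik-clot livers. Of 14 tested, 10 were negative and the median was -0.33. Cd83, a maturation marker that holds class II at the surface, was at 3.12, 3.47 and 2.97 CPM in AKOC livers and 4.33, 5.23 and 5.38 CPM in Quik-clot livers (-0.64 ± 0.17, edgeR adjusted p = 0.305). Batf3 (-0.82 ± 0.42) and Clec4a3 (-0.65 ± 0.38) were also negative, and the plasmacytoid marker Siglech was positive (1.08 ± 0.54). Of the 14, 2 (Cd83 and Batf3) were lower in every AKOC library than in any Quik-clot library, against 8.84% of all genes. Clec9a, a marker of cross-presenting dendritic cells, was chosen for mention after its values were seen. It was at 0.606 to 1.30 CPM in AKOC livers and 0.609, 2.41 and 0.459 CPM in Quik-clot livers, highest in Quik-clot replicate 2. Siglech was instead lowest in that library, at 0.390 CPM against 0.988 to 2.35 CPM in AKOC livers. Of this list Ccl22 was at 0 in at least 1 library.

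B cell markers summed to 88.2 to 134 CPM in AKOC livers and 106 to 122 CPM in Quik-clot livers. AKOC replicate 1 had the highest sum. Most of the sum was the plasma cell gene Jchain, at 60.6 to 108 CPM in AKOC livers and 76.1 to 95.5 CPM in Quik-clot livers. Jchain was also highest in AKOC replicate 1, so the sum says little about where the other B cell markers were highest. The median log2 fold change was -0.08 over 10 tested genes. Ms4a1, which encodes the B cell antigen CD20, was at 0.574 to 1.28 CPM in AKOC livers and at 0.979, 0.481 and 0.757 CPM in Quik-clot livers. It was lowest in Quik-clot replicate 2, where class II was highest. Blk, a B cell kinase, had -0.71 ± 0.29 and Cd37 -0.49 ± 0.23, and both of these, like Cd22, were highest in Quik-clot replicate 2. Cd79a was at -0.35 ± 0.25 and Fcrla at 0.40 ± 0.60. Of this list Fcer2 was at 0 in at least 1 library.

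The sums of T and of NK cell markers were highest in Quik-clot replicate 2, the library in which class II was highest. T cell markers summed to 17.9 to 22.7 CPM in AKOC livers, against 19.8, 56.1 and 18.3 CPM in Quik-clot livers. Il7r took 31.5 CPM of the T cell sum in Quik-clot replicate 2. Not every T cell marker was highest there, as Cd5 was at 0.908 CPM in AKOC replicate 2 against 0.596 CPM. Of 11 T cell markers tested 9 were negative, with Il7r at -0.92 ± 0.54, Zap70 at -0.85 ± 0.53, Cd3e at -0.69 ± 0.54 and Icos at -0.38 ± 0.30. Ctla4 and Foxp3 were at 0 in at least 1 library. NK cell markers summed to 16.6, 20.3 and 14.2 CPM in AKOC livers and 18.7, 59.2 and 19.3 CPM in Quik-clot livers, with all 12 negative, a median of -1.01 and 4 lower at an unadjusted p under 0.05 (5.69% of all genes). These were the signalling chain Cd247 (-1.49 ± 0.42), the granule protease Gzma (-1.19 ± 0.47), the receptor Klrd1 (-1.03 ± 0.43) and perforin, Prf1 (-1.001 ± 0.41). In Quik-clot replicate 3, where RT1-Ba and RT1-Bb were high, the T cell median stood at -0.50 and the NK cell median at -0.17 on the log2 scale relative to all libraries. The dendritic (-0.15) and pan-leucocyte (-0.08) medians were also negative there. The monocyte (0.32), macrophage (0.18) and B cell (0.12) medians were positive.

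Sinusoidal endothelium, which can carry class II at low levels, had all 10 markers negative with a median of -0.24, and Flt4 (-0.71 ± 0.23), Lyve1 (-0.30 ± 0.10) and Pecam1 (-0.26 ± 0.11) were lower at an unadjusted p under 0.05 (5.69% of all genes), beside Kdr at -0.27 ± 0.13. Cholangiocyte markers summed to 26.4 to 35.5 CPM in AKOC livers and 25.9 to 41.8 CPM in Quik-clot livers, with 5 of 6 tested negative and Krt7 at 0 in at least 1 library. Spp1 (-1.34 ± 0.34, edgeR adjusted p = 0.295) was called lower by DESeq2 (adjusted p = 0.0249), and Sox9 was at -0.90 ± 0.72, Cftr at -0.61 ± 0.52 and Krt19 at -0.32 ± 0.38. Stellate cell genes were more often positive (6 of 10, median 0.25), with Lum at 1.90 ± 0.57 (edgeR adjusted p = 0.315), Pdgfrb at 0.77 ± 0.26 and Reln at 0.36 ± 0.18. Dcn went the other way, at -0.99 ± 0.48. DESeq2 called Lum higher (adjusted p = 0.0457), as it did 1.34% of all genes. Of 12 hepatocyte genes 8 were negative (median -0.24), with Hnf4a at -0.41 ± 0.13, Cyp2e1 at -1.06 ± 0.47 and Tat at -0.49 ± 0.38. Hnf4a was lower in every AKOC library than in any Quik-clot library, as were 8.84% of all genes. Ttr, at 0.70 ± 0.35, was higher in every AKOC library than in any Quik-clot library, as were 9.53%.

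**Figure D4:**
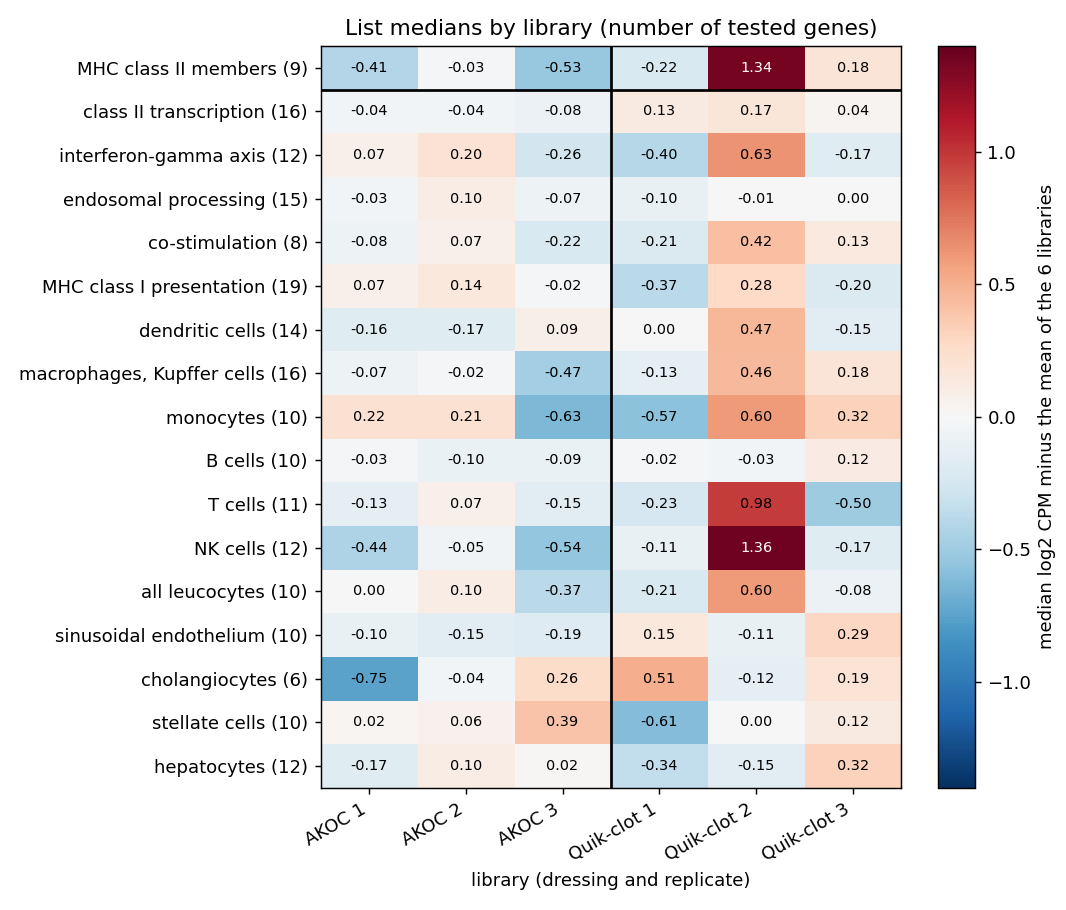
Median over each list of the log2 CPM minus the mean of the 6 libraries (colour and printed value), for AKOC libraries (left) and Quik-clot libraries (right), with the number of tested genes in brackets. Quik-clot replicate 2 is at 1.34 for class II and 1.36 for NK cells, whereas its B cell and endosomal processing medians lie near 0.

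The genes whose profile over the 6 libraries was most like the mean standardised class II profile were sought among 11351 genes with a mean of at least 1 CPM and an established symbol. Bak1, a mitochondrial apoptosis effector, was the most alike (Pearson r = 0.991, n = 6 libraries), followed by Fbxo30 (0.987), Ubxn2b (0.980), the T cell adaptor Lat (0.980), the actin regulators Vasp (0.976) and Was (0.973), Ehd4, an endosomal recycling protein (0.973), and the clathrin adaptor subunit Ap2m1 (0.973). Correlation takes no account of size: Bak1 ranged 3.07-fold over the libraries and Ap2m1 1.15-fold. In all of them Quik-clot replicate 2 was the highest library. A correlation above 0.9 was reached by 1.06% of these genes, so the likeness is given as a description. Spearman correlations of the 8 genes ran from 0.771 to 1. Without Quik-clot replicates 2 and 3, the libraries farthest from the median of the class II profile, Pearson r over the remaining 4 ran from 0.621 (Ap2m1) to 0.978 (Ehd4).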

How the data were processed

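The authors deposited whole-number read counts per gene and, in a second table, FPKM for the same 6 libraries. The submitters' processing notes name fastp, HISAT2, HTSeq and the mRatBN7.2 build. Their versions and settings, the annotation, and the FPKM computation were not given in the sources used here. The deposited FPKM equal count over length and library total, to within a relative error of 8.76e-07, so both tables carry one measurement. Groups came from the sample titles.

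From the counts, filterByExpr (minimum count 10, minimum total 15) kept 13872 genes, all 9 members included. Dressings were compared, two-sided, with edgeR 4.0.16 (quasi-likelihood, R 4.3.3) after TMM scaling, with dressing as the single term. P-values were adjusted by Benjamini-Hochberg over the whole tested table. Genes were called at an adjusted p under 0.05. SE is the log2 fold change over the root of its F statistic. List profiles used log2 CPM with a prior count of 2. DESeq2 1.42.0 and limma 3.58.1 served alternatives. No pair of libraries within a dressing agreed within sampling noise.

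Members and gene lists were chosen with earlier results of these data known. Named are all members, up to 4 genes of smallest p per list, and the 8 genes most like the members; cell markers beyond these are named as values. Promoter sequences are from RefSeq (GRCr8), a build other than the authors'.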

Additional observations from a re-analysis of the deposited data

How the results depend on the processing

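No alternative called a class II member: the count was 0 with DESeq2, limma-voom, median-of-ratios factors, the legacy quasi-likelihood fit, library totals, both other filters, limma-trend on log2(FPKM + 1) and log2(FPKM + 0.1), an adjusted p under 0.1, the replicate block and each library left out. Over all genes edgeR called 0. DESeq2 called 280 (186 higher, 94 lower) and the replicate block 1, and leaving out single libraries gave 0 to 18, with 18 without Quik-clot replicate 2, 10 without AKOC replicate 1 and 2 without AKOC replicate 2; the cause was not tested. The member median ran from -1.31 to -0.47 over single omissions and from -1.11 to -0.77 over the other settings. RT1-DMb (-0.54 to 0.052 over single omissions) and RT1-DOa (-0.75 to 0.057) changed sign, both without Quik-clot replicate 2. The labels do not say whether the replicate numbers pair the samples. Correlations of same-numbered deviations (-0.07, -0.08 and -0.20) cannot exclude it. The block is therefore an alternative only. It gave 3 members lower at an unadjusted p under 0.05 (3.97% of all genes) and a member median of -0.91. The SE narrowed for RT1-Da (-1.03 ± 0.17, edgeR adjusted p = 0.330) and Cd74 (-0.91 ± 0.17, edgeR adjusted p = 0.340). It did not narrow for RT1-Bb (-1.27 ± 0.71). The 5 members at an unadjusted p under 0.05 became 1 with limma-voom, 3 with either limma-trend fit and 4 with the legacy fit or the 1 CPM filter. At 1 CPM in 3 libraries RT1-DOa was not tested. Low counts limit RT1-DOa and Ciita.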
